A study of Mus musculus with 6 samples.

Results

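Transcription factors that build and maintain skeletal muscle were examined in the reloaded soleus of mice that lack tenascin-C: the myogenic basic helix-loop-helix factors Myod1, Myog, Myf5 and Myf6, and the Mef2 factors Mef2a and Mef2c. The 6 genes were chosen by symbol in the platform's annotation. Each has 1 probe, so the 6 probes stand among 221 that were tested and 223 in the deposited table. All 6 samples form 1 group. They are soleus muscles of tenascin-C deficient (TNC Null) 129/SV mice, 1 array per animal, taken after 1 day of reloading, that is, of renewed weight bearing. Total RNA from sections of the muscle belly was labelled with a radioactive nucleotide. The sources used here state neither the animals' age nor the way in which Tnc was disrupted. No unloaded or wild-type muscle was analysed here, so the values show what could be measured in this muscle and not a response to load or genotype.

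Myogenic basic helix-loop-helix factors bind the short DNA motif known as the E-box, as dimers with ubiquitous partner proteins. Myf5 and Myod1 mark activated satellite cells, the precursor cells of muscle, Myog drives their differentiation, and Myf6 (also called MRF4) is the family member that predominates in mature fibres. Mef2 proteins bind an A- and T-rich motif, cooperate with the basic helix-loop-helix factors and, in fibres, carry calcium signals to genes of the contractile and oxidative apparatus.

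The promoters of the factors were searched for the motifs of both families. RefSeq promoter windows (GRCm38.p6, from 250 bases before to 50 after a transcript's start) were found for 4 of the 6 genes, in 6 windows. They were searched on both strands for the E-box, CANNTG, and for the MEF2 consensus, a pyrimidine, T, A, 4 bases that are each A or T, T, A and a purine. Both motifs read the same on both strands as patterns. The windows of Myog and Mef2a are shown because each holds a match to the motif of its own family, in capitals. For Myog these are E-boxes, and for Mef2a the MEF2 consensus.
Myog, chr1:134289754-134290053, plus strand: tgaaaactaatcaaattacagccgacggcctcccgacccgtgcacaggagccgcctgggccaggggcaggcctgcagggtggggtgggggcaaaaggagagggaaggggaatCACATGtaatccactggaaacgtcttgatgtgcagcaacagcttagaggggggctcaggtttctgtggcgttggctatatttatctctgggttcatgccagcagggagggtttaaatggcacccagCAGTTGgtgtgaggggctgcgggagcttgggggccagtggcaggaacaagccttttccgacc
Mef2a, chr7:67372809-67373108, minus strand: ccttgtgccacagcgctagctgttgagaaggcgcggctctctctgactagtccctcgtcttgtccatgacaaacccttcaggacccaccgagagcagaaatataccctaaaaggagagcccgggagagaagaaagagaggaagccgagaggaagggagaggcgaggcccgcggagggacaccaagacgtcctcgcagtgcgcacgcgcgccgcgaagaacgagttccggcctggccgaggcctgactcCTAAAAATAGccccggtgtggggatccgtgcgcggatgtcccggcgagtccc

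The E-boxes of Myog begin 138 and 12 bases upstream of its start, and the MEF2 match of Mef2a begins 2 bases upstream of its start. No E-box overlapped a MEF2 match. Of 32851 promoter windows, 72.3% held an E-box and 3.19% the MEF2 consensus, so an E-box is common and a MEF2 match uncommon at this length. Over the windows of the measured genes, 3 of 6 held an E-box (Myog and 2 of the 3 windows of Mef2c) and 1 of 6 the MEF2 consensus. The search was strict, so near matches were not counted. The Myog window holds such a stretch, ctatatttat, which departs from the MEF2 consensus only at its last base. A window without a match can therefore still hold a MEF2 site. These matches are descriptions of the letters; binding was not measured.

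Signals were read against the lowest intensity of each array, which stands for the unspecific signal of the membrane. A probe was counted as well measured where it reached 2 times that value. The probe of Tnc, the gene disrupted in these mice, passed this level on arrays 1, 2, 4 and 6, at 4.07, 4.5, 2.78 and 2.17 times. The way in which Tnc was disrupted is not stated, so the source of this signal is not known. A value at this level is therefore not in itself proof of a specific transcript. The range above the lowest intensity differed between arrays. If every one of the 221 probes had the lowest intensity, that would account for 66.6% of the summed signal on arrays 1 and 2, against 13.3% to 39.9% on the other 4. The unnamed probe 1M and the ribosomal RNA probe 1O, which appear from the column sums to lie outside the authors' scaling, together gave 41.3 and 40.5 on arrays 1 and 2 and 0.876 to 3.21 on the others. The share of all 221 probes that reached 2 times the lowest was 8.6%, 9.05%, 16.7%, 29%, 34.8% and 47.1% on arrays 1 to 6. Results are therefore given for all arrays and for arrays 3 to 6, a choice made with these values known. In these whole-muscle samples fewer cells of a type and less RNA per cell cannot be told apart.

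Of the 6 factors, Mef2c and Myf6 were the ones whose signal was at least 2 times the lowest intensity on all of arrays 3 to 6. Myod1 reached that level on 2 of these arrays, Myog on 1, and Myf5 and Mef2a on none. The count of 2 in 6 compares with 30 of 221 probes, 13.6%, under the same rule. The number of factors that reached it on arrays 1 to 6 was 0, 0, 2, 2, 3 and 4, and no factor did so on all 6 arrays, where 5 of 221 probes, 2.26%, did.

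**Figure D1:**
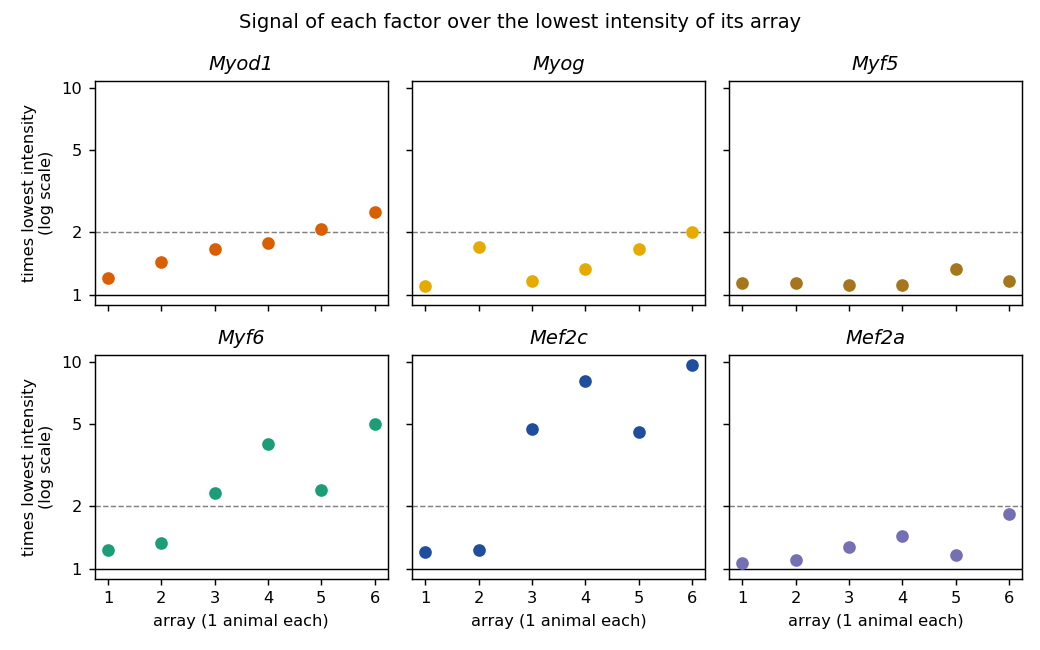
Intensity of each factor as a multiple of the lowest intensity of its array (log scale), 1 point per array, with the dashed line at 2 times the lowest. Mef2c lies between 4.58 and 9.67 and Myf6 between 2.33 and 5.0 on arrays 3 to 6, while Myf5 stays at or under 1.33 on all 6 arrays.

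Mef2c, a factor of differentiated fibres that is also expressed in endothelium, gave intensities of 0.0036, 0.0037, 0.0085, 0.0073, 0.0055 and 0.0058 on arrays 1 to 6. Over the lowest intensity these were 1.2, 1.23, 4.72, 8.11, 4.58 and 9.67 times, with a mean of 6.77 ± 2.53 (SD, n = 4, arrays 3 to 6). Arrays 1 and 2 stood low and did not overlap the other 4, on which 15 to 27 of 221 probes were brighter.

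Myf6, the myogenic factor of mature fibres, gave intensities of 0.0037, 0.004, 0.0042, 0.0036, 0.0029 and 0.003. Over the lowest these were 1.23, 1.33, 2.33, 4.0, 2.42 and 5.0 times, with a mean of 3.44 ± 1.29 (SD, n = 4, arrays 3 to 6). The intensities overlapped between arrays 1 and 2 and the rest, whereas the multiples of the lowest did not.

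Myod1, which commits cells to the muscle lineage, gave intensities of 0.0036, 0.0043, 0.003, 0.0016, 0.0025 and 0.0015. Over the lowest these were 1.2, 1.43, 1.67, 1.78, 2.08 and 2.5 times, with a mean of 1.78 ± 0.465 (SD, n = 6). The signal thus lay above the lowest on every array, by 6 to 13 units of the fourth decimal, and passed 2 times it on arrays 5 and 6.

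Myog, the differentiation factor, gave intensities of 0.0033, 0.0051, 0.0021, 0.0012, 0.002 and 0.0012. Over the lowest these were 1.1, 1.7, 1.17, 1.33, 1.67 and 2.0 times, with a mean of 1.49 ± 0.351 (SD, n = 6). Array 2 stood high in intensity, 21 units of the last decimal above the lowest against 3 to 8 on the other 5 arrays, and only array 6 reached 2 times the lowest.

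Myf5, the earliest factor of the family in precursor cells, gave intensities of 0.0034, 0.0034, 0.002, 0.001, 0.0016 and 0.0007. Over the lowest these were 1.13, 1.13, 1.11, 1.11, 1.33 and 1.17 times, with a mean of 1.16 ± 0.085 (SD, n = 6). The probe was 1 to 4 units of the last decimal above the lowest on every array, so rounding makes up a large part of its excess over the background, and Myf5 was not well measured on any array.

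Mef2a, the second Mef2 factor with a probe, gave intensities of 0.0032, 0.0033, 0.0023, 0.0013, 0.0014 and 0.0011. Over the lowest these were 1.07, 1.1, 1.28, 1.44, 1.17 and 1.83 times, with a mean of 1.31 ± 0.289 (SD, n = 6). It lay 2 to 5 units of the last decimal above the lowest, and no array reached 2 times it. Depth of signal thus limits Mef2a and Myf5 alike: a transcript below the membrane's background was not detectable here, which does not show that it was absent.

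**Figure D2:**
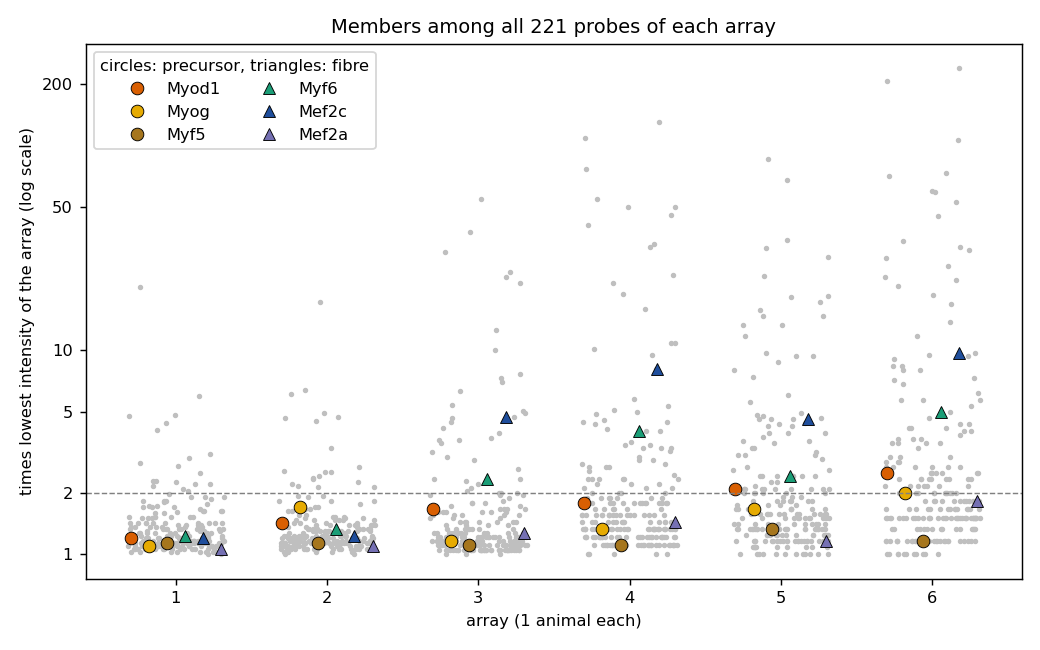
Multiples of the lowest intensity (log scale) for all 221 probes of each array in grey, with the factors as coloured circles (Myod1, Myog, Myf5) and triangles (Myf6, Mef2c, Mef2a). On arrays 3 to 6 Mef2c has 15 to 27 probes above it, and on arrays 1 and 2 it has 105 and 92.

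The factors were tested against the median probe of their array with limma, over 221 probes. With all 6 arrays 0 of the 6 passed the adjusted threshold of 0.05. At an unadjusted p under 0.05, 3 stood above the median (Mef2c, Myf6 and Myod1) and 1 below it (Myf5), against 62 and 34 of 221 probes. Over all probes, 2 passed above the median, 0.905%, and 0 below it, 0%. The mean log2 difference from the median was 1.40 ± 0.398 for Mef2c (limma SE, n = 6, adjusted p = 0.065), 0.78 ± 0.224 for Myf6 (adjusted p = 0.0659) and 0.31 ± 0.0824 for Myod1 (adjusted p = 0.0603). Mef2c lay exactly at the median on array 1 and 0.04 above it on array 2, and its SD over the arrays was 1.12. Without array 1 limma's test called Mef2c (adjusted p = 0.0379), Myf6 (0.0464) and Myod1 (0.0379), and 29 probes in all stood above the median. Without array 2 it called Mef2c alone (0.0487) and 23 probes in all, and without any 1 of the other arrays 0 factors and 0 probes.

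On arrays 3 to 6 alone 3 factors passed above the median and 0 below it in limma's test, against 24.4% and 6.33% of 221 probes. Mef2c stood 2.09 ± 0.183 above it on the log2 scale (limma SE, n = 4, adjusted p = 0.000456), higher on 4 of 4 arrays. Myf6 stood 1.11 ± 0.177 above it (adjusted p = 0.00526), and Myod1 0.40 ± 0.102 (adjusted p = 0.0355), each also on 4 of 4 arrays. With any 1 of these arrays left out, Mef2c and Myf6 still passed limma's test (adjusted p at most 0.00706 and 0.04). Myod1 did not (from 0.0785 without array 4 to 0.121 without array 5), so the call of Myod1 rests on all 4 arrays. Arrays 3 to 6 were chosen with the values known. The share of all probes that passed above the median was 24.4% on them, against 0.905% with all 6 arrays. The calls, and the fits with 1 of these arrays left out, are therefore not independent support. Myog differed from the median by 0.0042 ± 0.107 (adjusted p = 0.988), Mef2a by −0.09 ± 0.128 (adjusted p = 0.556) and Myf5 by −0.35 ± 0.126 (adjusted p = 0.0695). The median of the 6 factors was 0.20, beside 0.04 over all 221 probes, whose middle range ran from −0.25 to 0.57. The test places a spot against the array's typical spot, and brightness also depends on the probe, so it gives no order of transcript levels among the factors.

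**Figure D3:**
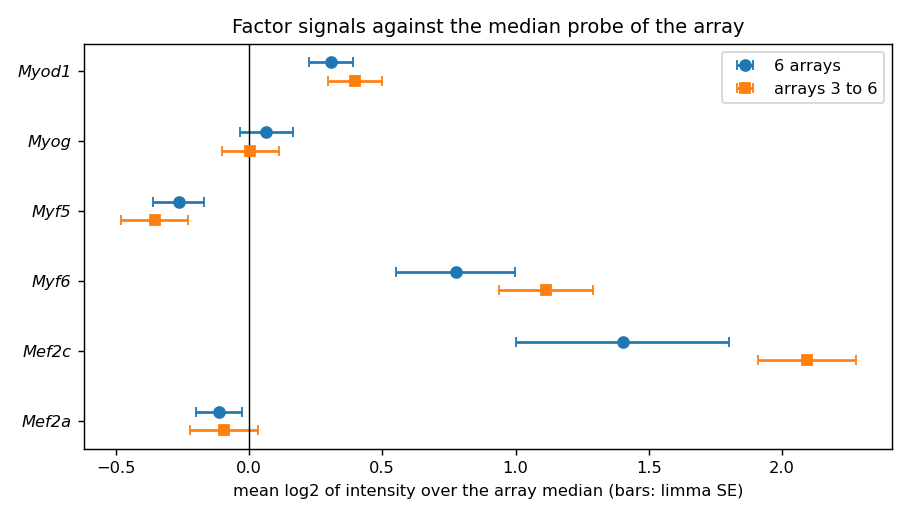
Mean log2 ratio of each factor to the median probe of its array, with limma's standard error as bars, for all 6 arrays (circles) and arrays 3 to 6 (squares). Mef2c at 2.09, Myf6 at 1.11 and Myod1 at 0.40 lie above 0 on arrays 3 to 6, and Myog, Mef2a and Myf5 lie near or below it.

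Factors of activated precursors (Myod1, Myog and Myf5) were set beside those of mature fibres (Myf6, Mef2c and Mef2a) on each array. The names of the sets follow the roles given above. In whole muscle the cells that gave each signal were not identified. The mean log2 multiple of the lowest intensity was 0.19, 0.49, 0.37, 0.47, 0.74 and 0.85 for the precursor factors on arrays 1 to 6. It was 0.22, 0.29, 1.27, 1.85, 1.23 and 2.16 for the fibre factors. The fibre set thus stood above the precursor set on arrays 3 to 6, by 1.02 ± 0.411 (SD, n = 4), and the sets differed by 0.03 and −0.20 on arrays 1 and 2. Over all 6 arrays the difference was 0.65 ± 0.66 (SD, n = 6), about the size of its own spread. The fibre set was carried by Mef2c and Myf6, because Mef2a stayed as low as the precursor factors: at most 1.83 times the lowest, against 2.5 for Myod1 and 2.0 for Myog. Since these are different probes, the difference is a description of spot signals and was not tested.

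**Figure D4:**
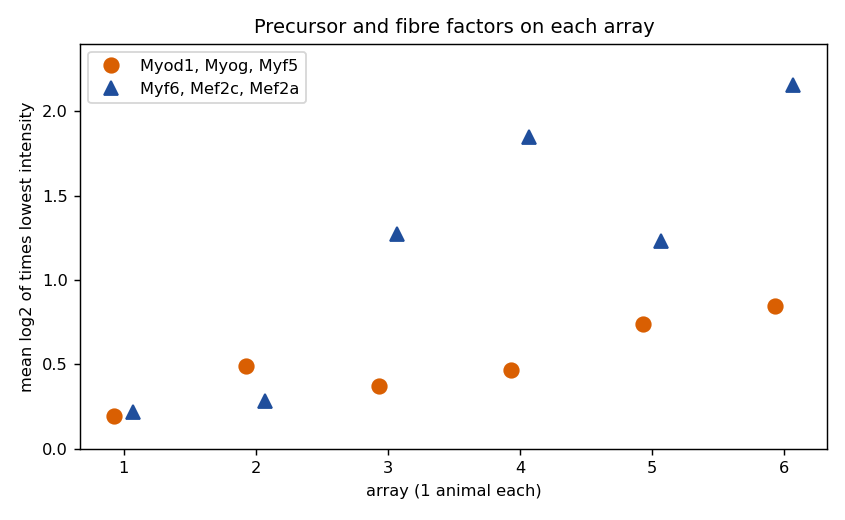
Mean log2 multiple of the lowest intensity for the precursor factors (circles) and the fibre factors (triangles) on each array, 3 probes per point. The fibre factors lie between 1.23 and 2.16 on arrays 3 to 6, above the precursor factors at 0.37 to 0.85, and the order is not seen on array 2.

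After the lowest intensity was subtracted, each factor's signal was expressed as a share of the summed net signal of its array. Mef2c then made up 1.12%, 0.80%, 0.586% and 0.600% on arrays 3 to 6, against 0.181% and 0.210% on arrays 1 and 2. Array 3 stood highest, although array 6 had the highest multiple of the lowest. Myf6 made up 0.400%, 0.338%, 0.232% and 0.277% on arrays 3 to 6. Its shares on arrays 1 and 2 were 0.211% and 0.300%, which overlap the others. Myod1 lay between 0.0876% and 0.200% on arrays 3 to 6, and gave 0.181% and 0.391% on arrays 1 and 2.

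Ratios of net signals between factors were compared across arrays 3 to 6. The net signal of Mef2c was 2.79, 2.37, 2.53 and 2.17 times that of Myf6, and the highest of these ratios was 1.29 times the lowest. The ratio of Mef2c to Myod1 ran from 3.31 to 9.14, a 2.76-fold range, with Myod1 only 7 to 13 units of the last decimal above the lowest. On arrays 1 and 2 the ratio of Mef2c to Myf6 was 0.857 and 0.70. These ratios compare the arrays with each other and are not ratios of transcript numbers.

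Differences between arrays were also tested with limma's variance test over 197 probes measured above the lowest on all 6 arrays, which all 6 factors were. The test called 0 of the 6 factors, 0 also at an unadjusted p under 0.05, beside 4 of 197 probes, 2.03%. Their adjusted p ran from 0.874 to 0.998. The SD of log2 intensity was 0.22 for Myf6, 0.50 for Mef2c, 0.62 for Myod1, 0.69 for Mef2a, 0.82 for Myog and 0.93 for Myf5, beside a median of 0.83 over all probes tested (n = 6). These uncentred values include the change of the lowest intensity itself, from 0.003 on arrays 1 and 2 to 0.0006 on array 6. A probe near the lowest, such as that of Myf5, shares this change. After each array was centred on its median, Mef2c and Myf6 had the widest spread of the 6, at 1.12 and 0.62, while Mef2a, Myod1, Myf5 and Myog gave 0.18, 0.17, 0.22 and 0.24, beside a median of 0.29. The order of the factors thus turned with centring. The array medians were highest on arrays 1 and 2, at 0.0036, where Mef2c and Myf6 lay lowest over the background. With centring 0 factors passed limma's test, 0 at an unadjusted p under 0.05, beside 0.508% of probes. On arrays 3 to 6 alone 0 passed, 0 unadjusted, beside 2% of 200 probes.

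Genes with the most similar profile over the 6 arrays were sought by the root mean square difference of median-centred log2 profiles, each set to a mean of 0, among 184 other named probes. For Mef2c these were Itgb1, a beta integrin subunit (0.29), Pdha1, a pyruvate dehydrogenase subunit (0.30), and Mdh2, mitochondrial malate dehydrogenase (0.31), beside a median of 1.04 over all candidates. For Myf6 they were Dmpk, the protein kinase affected in myotonic dystrophy (0.18), Acadl, an enzyme of fatty acid oxidation (0.19), and Cited2, a transcriptional co-regulator (0.19), beside 0.67. All profiles share the arrays' unequal range above the lowest intensity, and no significance is attached to the order. Myod1 was nearest to Timp1, Egf and Fabp3 (0.11, 0.12 and 0.12), Myog to Egfr, Htt and Gip (0.16, 0.16 and 0.17), and Mef2a to Plau, Vegfa and Fgfr1 (0.09, 0.10 and 0.10). Myf5 was nearest to Pparg, Pgf and Prl2c3 (0.03, 0.04 and 0.05). Pparg, Pgf and Prl2c3 stayed at or under 1.42 times the lowest on every array, as did Myf5. Among the factors themselves Myf6 lay 0.47 from Myod1 and 0.50 from both Mef2c and Mef2a, and Myod1 lay 0.21 from Mef2a and 0.25 from Myog.

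Probe identifiers, read as row and column, place the factors close together on the membrane; that layout is an assumption. The identifiers around Mef2c hold 8 other probes. Apart from Igf1, which reached 4.58 times the lowest on array 5, they stayed at or under 1.67 times on arrays 3 to 6. Those around Myf6 stayed at or under 1.83 times on the same arrays.

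Genes around the factors were grouped in lists chosen with earlier results of these data known. Those counted as well measured had to reach 2 times the lowest on all 4 of arrays 3 to 6. Over all 221 probes 13.6% did so, and 24.4% stood above the array median in limma's test on these arrays. Of 12 fibre targets of these factors with a probe, 9 did so, and 10 stood above the array median in limma's test on these arrays. Of these 9 targets, 7 are also the mature fibre markers given below, so the counts of the lists share these probes. The 9 include Aldoa, a glycolytic enzyme, at 118 ± 84.0 times the lowest, Cox6a2, a muscle subunit of cytochrome c oxidase, at 44.6 ± 22.4, the intermediate filament gene Des at 39.8 ± 15.8, and the myoglobin gene Mb at 55.4 ± 35.1 (SD, n = 4). The median over all 12 targets was 3.81 above the array median on the log2 scale, beside 0.04 over all probes. Slc2a4, the glucose transporter that Mef2a is known to regulate, reached 2 times the lowest on 3 of these arrays, with 1.94, 4.56, 4.25 and 6.17 times. Cdkn1a, a cell cycle inhibitor induced as myoblasts differentiate, gave 2.0, 1.44, 1.17 and 1.83 times.

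Upstream signals were measured unevenly. Of 15 probes for 14 growth factor and receptor genes, 3 were well measured on all 4 arrays, 7 on some of them and 5 on none. In this list 5 of 15 probes stood above the median in limma's test on these arrays, beside 24.4% of all probes, and 3 of 15 were well measured, beside 13.6%, so both counts lie near those over all probes. The 3 were Igf2, an insulin-like growth factor, Il6st, the shared receptor subunit of the interleukin 6 family, and Fgfr2, a fibroblast growth factor receptor. Fgfr2 gave 3.5, 5.0, 2.08 and 4.0 times. Hgf, the growth factor that activates satellite cells, gave 1.11, 1.22, 2.42 and 1.83 times and did not differ from the median by limma's test (0.06 ± 0.166, adjusted p = 0.778). The list's median was 0.07, close to 0.04 over all probes.

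Partners, inhibitors and precursor markers were few. Srf, a partner in muscle gene activation, gave 1.61, 1.89, 2.25 and 4.0 times the lowest and stood 0.60 ± 0.158 above the median (limma, adjusted p = 0.0373, and 0.0201 to 0.112 without 1 of the 4 arrays), while Rb1, the retinoblastoma protein of cell cycle exit, gave 1.11, 1.44, 1.92 and 2.33 times. Tgfb1, a growth factor that inhibits myogenic factors, gave 1.44, 2.0, 1.5 and 2.17 times. Of 9 satellite cell and myoblast markers 2 had a probe, and 0 of these were well measured on all 4 arrays, beside 13.6% of all probes. A count of 0 in 2 is not a result about this list. Vcam1, an adhesion molecule of activated precursors and endothelium, lay between 1.0 and 1.5 times. Cd34, shared by satellite and endothelial cells, gave 1.28, 2.33, 2.08 and 3.67 times.

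Of 7 cell cycle genes 0 were well measured on all of arrays 3 to 6, beside 13.6% of all probes. A count of 0 in 7 lies near that share and is not a result about this list. Cdk4, a kinase that works with D-type cyclins, gave 3.17, 1.33, 3.08 and 2.67 times the lowest, and Pcna, the sliding clamp of DNA replication, gave 1.28, 1.67, 1.5 and 2.17 times. Ccnd1, Ccna2 and Top2a, a D-type cyclin, a cyclin of S phase and a topoisomerase of dividing cells, stayed at or under 1.5 times the lowest on these arrays, and Top2a stood below the array median in limma's test (−0.52 ± 0.145, adjusted p = 0.0432, and 0.015 to 0.142 without 1 of the 4 arrays). Pole2, a DNA polymerase subunit, stood above it (1.60 ± 0.375, adjusted p = 0.0264, and 1.04e-05 to 0.109 without 1 array) but was brightest on arrays 1 and 2, at 20.3 and 17.2 times the lowest. On the assumed layout its neighbours 4L (Tnc) and 4N (Dgat1) were also highest on arrays 1 and 2. They gave 4.07 and 4.5 times and 4.4 and 4.7 times there. Probes 1M and 1O, left out of the tests, have identifiers near that of Pole2, 3M. Together they gave 41.3 and 40.5 on arrays 1 and 2, against 0.876 to 3.21 on the others. The part of nearby spots in the signal of Pole2 was not tested.

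Markers of the cells in the sample were checked beside Mef2c. All 7 mature fibre markers with a probe (3 fast myosin heavy chains, Myh7, Ttn, Des and Mb) were well measured on all 4 arrays, from 3.61 to 106 times the lowest. The same 7 probes were counted among the fibre targets above. Of 5 endothelium markers 0 were well measured on all 4 arrays. With 13.6% of all probes well measured, a count of 0 in 5 is not a result about this list. In limma's test on these arrays 1 of the 5 stood above the array median, beside 24.4% of all probes. This was Pecam1 (0.86 ± 0.237, adjusted p = 0.0422, and 0.00273 to 0.146 without 1 of the 4 arrays). Pecam1, an endothelial adhesion molecule, gave 1.5, 1.89, 4.58 and 4.33 times and Cdh5, the vascular cadherin, 1.44, 1.56, 3.75 and 5.33 times. On the same measure Mef2c gave 4.72, 8.11, 4.58 and 9.67 times. Mef2c and Cdh5 were both highest on array 6, where 47.1% of all probes reached 2 times the lowest. Their order differed on arrays 4 and 5, where Mef2c gave 8.11 and 4.58 times and Cdh5 1.56 and 3.75. Pecam1 was highest on array 5, where Mef2c was lowest of these arrays. Tek, Kdr and Flt1 stayed at or under 2.0 times. Fabp4, a marker of adipocytes, gave 2.11, 4.33, 7.42 and 8.33 times and was thus well measured on all 4 arrays. It stood 1.70 ± 0.255 above the array median in limma's test on these arrays (adjusted p = 0.0041). The part of these cells in the signal of Mef2c was not tested.

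**Figure D5:**
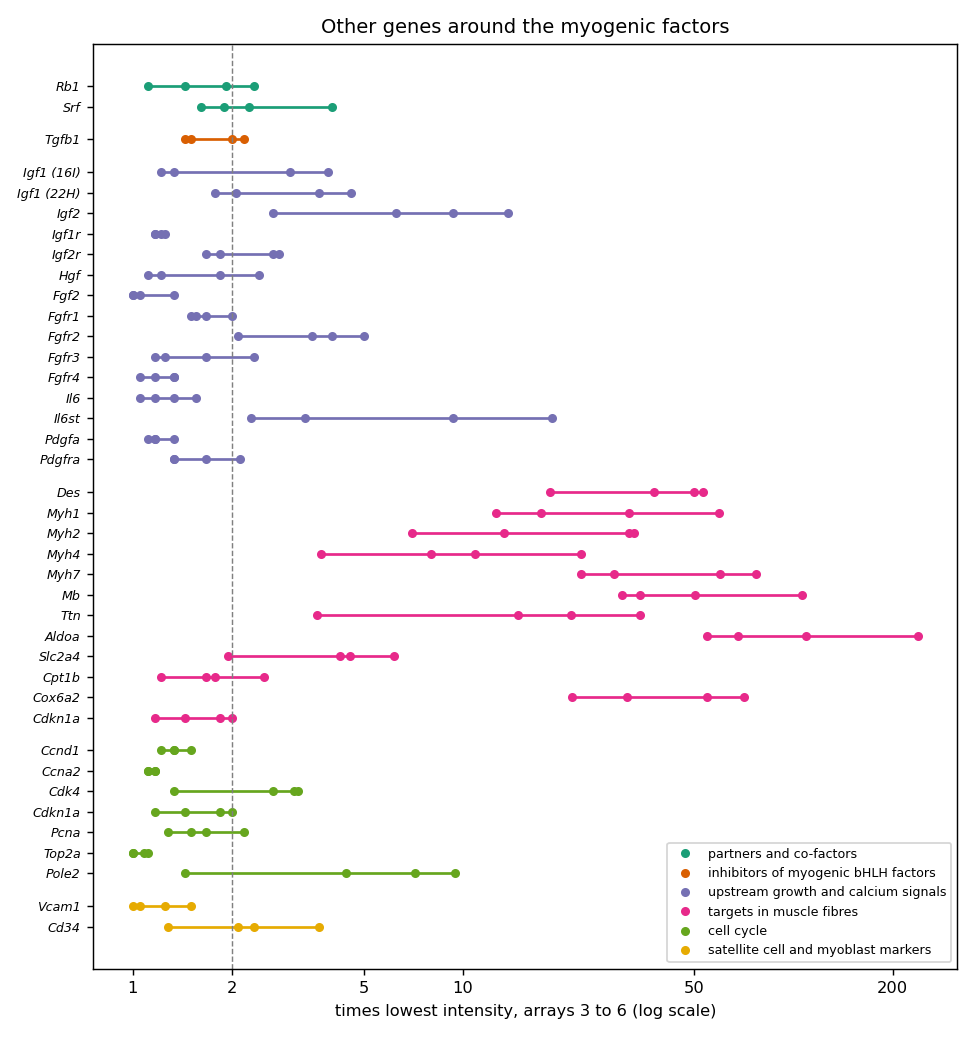
Multiples of the lowest intensity (log scale) on arrays 3 to 6 for probes of the partners, inhibitors, upstream signals, fibre targets, cell cycle genes and precursor markers, 1 point per array and a line over their range. Fibre targets such as Aldoa and Mb lie far to the right of the dashed line at 2, while Vcam1 and Ccnd1 lie to its left.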

How the data were processed

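The 6 arrays of 1 group, 1 per animal and numbered in the order of the sample records, gave the values used. The values the authors deposited are linear intensities, 1 for each probe on each array; image analysis, background treatment and scaling are not given in the sources used here. Without probes 1M and 1O the deposited intensities of each array sum to about 1 (0.995 to 0.999), and both were left out, leaving 221 of 223 probes. Probe names came from the platform annotation, matched by Entrez identifier to RefSeq (GRCm38.p6), where all 6 members matched.

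Log2 intensity minus the array's median was tested with limma 3.58.1 (R 4.3.3) by a moderated one-sample test. Each probe's variance was set against a prior that follows the mean log2 intensity (squeezeVar, robust). Both used Benjamini-Hochberg adjustment over all probes tested at 0.05, two-sided for the level and upper-tail for the variance. Both were checked on simulated data in which the arrays were alike and unchanged probes had a common SD. That check does not cover the unequal range of the real arrays. Named genes were the 6 members, their 3 nearest profiles each, and, from each list, up to 4 well measured genes. Other genes are named after their values were seen. Members and lists were chosen with earlier results of these data known. Alternatives changed the reference, scaling, background, pseudocount (0.0006), filters, floor and arrays. The number of arrays limits precision, and 1 unit of the last decimal was 3.33% to 16.7% of the lowest intensity.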

Additional observations from a re-analysis of the deposited data

How the results depend on the processing

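The count of probes above the array median, 2 with all arrays, was 55 with the lower quartile as reference, 36 after quantile normalization, 49 after subtraction of the lowest intensity, 25 with the pseudocount and 54 on arrays 3 to 6; without 1 array in turn it ran from 0 to 29, with 29 and 23 without arrays 1 and 2 and 0 without any of arrays 3 to 6. Mef2c passed limma's adjusted threshold in 6 of 13 settings (adjusted p from 0.000456 to 0.163), Myf6 in 5 (0.00526 to 0.163), Myod1 in 5 (0.0277 to 0.158), Myf5, below the median, in 2 (0.0237 to 0.511), and Myog and Mef2a in 0. On arrays 3 to 6 the count of 54 ran from 36 to 61 without 1 of them, an alternative added after the data were seen. The count of probes in the variance test, 4, was 1 after median-centring, 0 after quantile normalization and 0 with a prior without trend, and ran from 0 to 6 without 1 array in turn; the 6 factors passed in none of the 13 settings. Factors at 2 times the lowest on all of arrays 3 to 6, 2 in number, were 1 at 3 times the lowest (Mef2c) and 0 with all 6 arrays required; the count was 2 without any 1 of arrays 3 to 6, and 3 at 1.5 times. The difference between fibre and precursor factors, 0.65, stayed positive at 0.50 to 1.20 in 3 settings. These were subtraction of the lowest intensity, leaving out Mef2a and leaving out Myf5. No setting left out Mef2c or Myf6, which carried the fibre set, so dependence on them was not tested. The cause of these changes was not tested. No paired analysis was possible because the samples form 1 group.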
